A study of Mus musculus with 4 samples.

Results

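The genes described are 10 that set the pace of G1, the cell cycle phase before DNA synthesis: Ccnd1, Ccnd2, Ccnd3, Cdk4, Cdk6, Ccne1, Ccne2, Cdk2, Cdkn1a and Rb1. They were chosen by symbol for their role from the 23756 genes of the deposited table. The rule used no measured value, but earlier results of these data were known. All 10 were found and passed the expression filter. RNA-seq was run on 32Dcl3-Abl1ko cells, that is 32D cells from murine bone marrow, a line dependent on IL-3, carrying a CRISPR/Cas9 edit of Abl1. There were 2 groups of 2 libraries, Abl1ko/IL3+ (genotype Abl1 KO, grown with IL-3) and Abl1ko/IL3- (the same genotype, grown without IL-3). Every library therefore carried the Abl1 edit, the cells with unedited Abl1 were not analysed here, and the labels give no time in culture. By the study's account the edited cells were infected with a lentivirus carrying Cas9 and a guide, selected in puromycin and picked as single clones, and the IL-3-independent cells were those that grew out after gradual withdrawal of the factor. The labels do not tie a clone or guide to a library, so clone, culture and IL-3 cannot be told apart within a library.

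IL-3 is a growth factor of early myeloid cells whose receptor signals through JAK2 and STAT5, and growth factors drive cells through G1 largely by raising the D-type cyclins. Cyclins D1, D2 and D3 bind the kinases CDK4 and CDK6, which phosphorylate the retinoblastoma protein RB1 and so release E2F transcription factors. E2F factors turn on cyclins E1 and E2, which bind CDK2, complete the phosphorylation of RB1 and open S phase. The inhibitor p21, encoded by Cdkn1a and a classical target of p53, blocks CDK2 complexes. The question put to these genes was whether cells that had become independent of IL-3 differed in this machinery from edited cells that still received it.

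None of the 10 genes passed the test for a difference between the groups. With edgeR's quasi-likelihood test, 0 of 10 had a Benjamini-Hochberg adjusted p under 0.05, against 0.0% of the 16535 genes tested, and 0 of 10 had an unadjusted p under 0.05, against 5.91% of all genes. DESeq2's Wald test called 0 of 10 at the adjusted threshold, against 1.64% of all genes, and 0 of 10 at an unadjusted p under 0.05, against 8.28% of all genes. The adjusted p-values of the 10 genes in edgeR ran from 0.900 to 0.996. For most of them the spread between replicates was larger than the difference between the groups. For 7 of the 10 genes the 2 Abl1ko/IL3+ replicates differed from each other, on the log2 scale, by more than the fitted log2 fold change, and for 9 of 10 the replicates of one group or the other did. The same held for 67.1% and 75.9% of all genes tested.

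Total counts ranged from 48953174 to 60382588 per library, so that 3 counts equal 0.0497 to 0.0613 CPM, the count scaled to library size. This floor reflects counting error alone. Across genes, which are not independent replicates, log2 CPM correlated at a Pearson's r of 0.910 within Abl1ko/IL3+, 0.9445 within Abl1ko/IL3- and 0.896 to 0.926 for libraries of different groups. Abl1 itself had 1322 and 2222 counts with IL-3, against 1544 and 2256 without it (log2 fold change 0.21, standard error 0.45, adjusted p = 0.980 in edgeR). An edit that shifts the reading frame need not lower the RNA, so these counts check no label. The labels call the cells pre-B cells. Of 12 pre-B markers 7 were in the table, and their summed FPKM (fragments scaled to gene length and library depth) was 14.6 at most, while 10 myeloid progenitor markers, led by Mpo, summed to between 821 and 1409. Myeloid markers were thus abundant and pre-B markers scarce, against the label.

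For orientation, the DNA before the start of 3 of the genes is shown, because it holds letters of the kind bound by factors known to drive them. MYC binds the E-box CACGTG, E2F factors bind a core that opens with TT, closes with CGC and has any pair of C and G between, for example TTCCCGC, and p53 binds paired CATG cores, here searched with 6 bases between them. The motifs were searched on both strands in the 250 bases before each RefSeq start, do not overlap each other here, and are in capitals. Each run is given 5′ to 3′ on the gene's strand in GRCm38.p6 and is limited to bases outside annotated exons. The stretches are chr10:127063285-127063533 (plus strand) for Cdk4, chr10:128705052-128705179 (minus strand) for Cdk2 and chr17:29090729-29090975 (plus strand) for the outer of the 2 Cdkn1a starts.
Cdk4: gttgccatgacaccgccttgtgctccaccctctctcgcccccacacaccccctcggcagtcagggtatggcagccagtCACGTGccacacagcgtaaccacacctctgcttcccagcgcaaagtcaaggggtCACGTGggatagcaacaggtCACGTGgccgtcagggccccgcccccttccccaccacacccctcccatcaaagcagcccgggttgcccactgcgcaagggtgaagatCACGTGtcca
Cdk2: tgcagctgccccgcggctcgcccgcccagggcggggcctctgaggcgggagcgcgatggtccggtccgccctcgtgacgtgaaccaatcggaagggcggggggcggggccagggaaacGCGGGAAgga
Cdkn1a: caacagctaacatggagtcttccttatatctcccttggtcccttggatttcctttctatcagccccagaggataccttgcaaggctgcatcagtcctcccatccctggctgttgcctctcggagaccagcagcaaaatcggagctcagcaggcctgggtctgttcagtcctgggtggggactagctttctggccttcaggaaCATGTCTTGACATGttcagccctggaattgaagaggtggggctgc

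The promoter table used here, which is not complete, matched 6 of the 10 genes, and the promoters of Ccnd1, Ccnd2, Ccne2 and Rb1 were not analysed here. The E-box occurred 4 times before Cdk4 and once before Cdk6, and in 6.02% of all 32851 promoter windows. The Cdk6 window holds bases of an annotated Cdk6 exon. Its E-box, at -220, lies outside the exon-free stretch kept from that window. The E2F core occurred 2 times in the full window before Cdk2, 1 of them in the stretch shown, and in 7.89% of windows. The p53 pair lay before the outer Cdkn1a start and in 0.49% of windows. These letters were not present in the windows of Ccne1 and Ccnd3, which says nothing about the factors themselves. No binding was measured, so the matches only describe the sequence.

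Levels of different genes can be compared only per length, so FPKM is used for that purpose. Over the 4 libraries Cdk4 was the most abundant of the 10 genes (mean 71.9 FPKM), followed by Cdkn1a (65.5) and Cdk6 (46.4), and the ranges of these 3 overlapped. Between Cdk6, never under 33.6 FPKM, and Ccnd3 (mean 14.0, at most 32.9) the ranges did not overlap. Rb1 (11.3), Ccnd2 (7.79), Ccne2 (7.10), Ccne1 (6.50) and Cdk2 (2.36) followed with ranges that overlapped from each gene to the next. Ccnd1 stood apart at the bottom, with a mean of 0.351 FPKM and at most 0.446. By FPKM, Cdk4, Cdk6 and the inhibitor Cdkn1a were thus the abundant transcripts, while Cdk2 was ninth of the 10. Of the D-type cyclins only D2 and D3 were present in quantity. This order depends on the length used for each gene. Counts and FPKM imply 3667 bases for Cdk4, 15790 for Cdk6 and 7047 for Cdk2. Which transcript forms were expressed was not analysed here.

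**Figure D1:**
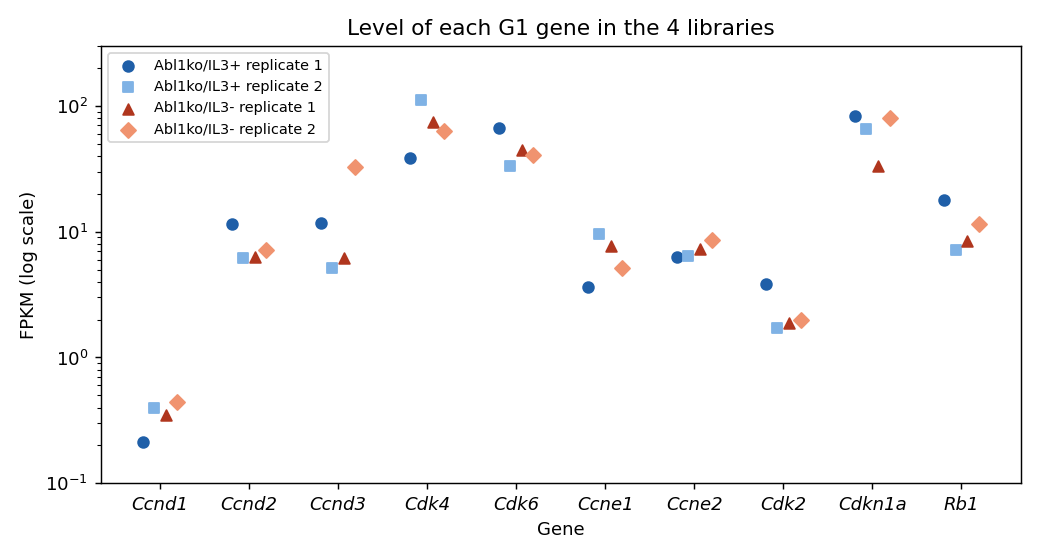
FPKM on a log axis for each of the 10 genes (x axis), with 1 point per library, blue for the Abl1ko/IL3+ and red for the Abl1ko/IL3- replicates. Cdk4, Cdk6 and Cdkn1a lie at the top in every library, Ccnd1 reaches at most 0.446, and Ccnd3 has a single high point of 32.9 in Abl1ko/IL3- replicate 2.

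The D-type cyclins link growth factor receptors to the cycle. Ccnd3 (chromosome 17 from 47505051 to 47599689, in GRCm38 as are all gene positions here) had 6937 counts in Abl1ko/IL3+ replicate 1 and 3062 in its replicate 2, against 3013 in Abl1ko/IL3- replicate 1 and 18102 in its replicate 2, the order kept for all values below. In CPM scaled by edgeR's TMM factors, which is the scale of all CPM values here, these were 108 and 56.3 with IL-3, against 63.0 and 312 without it. One library without IL-3 was the highest of the 4 and the other lay between the libraries with IL-3, so the groups overlapped. At 1.19 (standard error 0.82, adjusted p = 0.900 in edgeR) its log2 fold change was the largest of the 10 and rested on that library: without Abl1ko/IL3- replicate 2 it was -0.38, and without Abl1ko/IL3- replicate 1 it was 1.93.

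The level of Ccnd3 in Abl1ko/IL3- replicate 2 was 2.90 times that of the next library. In 0.671% of all genes tested that library was the highest by as large a factor, a comparison made after the value was seen. Of the 6 neighbouring genes on the chromosome, only Gm20517, with 55 counts at most, was clearly highest in that library (1.78 times the next). Taf8, just upstream on the other strand, had 37.0 and 33.3 CPM with IL-3, against 34.4 and 34.0 without it. Bysl, whose exons overlap the end of Ccnd3 on the other strand, had 18.8 and 35.4 CPM with IL-3, against 26.9 and 20.6 without it. The pseudogene Ccnd3-ps had 2 counts in 1 library and 0 in the others. Markers of maturing neutrophils were also highest in that library: the 12 genes, none of them at or under 3 counts throughout, summed to 715 and 217 FPKM with IL-3 and to 827 and 4276 without it. Ngp, a granule protein, supplied most of this (541 and 158 FPKM with IL-3, 427 and 3031 without). Of the 11 neutrophil markers tested, 5 were higher without IL-3 at an unadjusted p under 0.05, as were 2.56% of all genes, and 0 passed the adjusted threshold in edgeR. The part of such cells in the Ccnd3 value was not tested, and in bulk RNA more cells of a type and more RNA per cell cannot be told apart.

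Ccnd2 (chromosome 6 from 127125162 to 127152193), a target of STAT5 in cytokine-dependent cells, had 7225 and 3971 counts with IL-3, against 3330 and 4224 without it. That is 112 and 73.0 CPM with IL-3, against 69.6 and 72.8 CPM without it. Abl1ko/IL3+ replicate 1 was high and the other 3 libraries were close together. Its groups did not overlap, with 73.04 CPM as the lower value with IL-3 and 72.77 CPM as the higher without it, and they overlapped when libraries were scaled by total count or upper quartile. Its log2 fold change was -0.38 (standard error 0.35, adjusted p = 0.933 in edgeR), and -0.02 without Abl1ko/IL3+ replicate 1. Ccnd1 (chromosome 7 from 144929931 to 144939925), the D-type cyclin of many epithelial cells, was counted 67 and 128 times with IL-3, against 92 and 132 times without it. It was low in every library, at 1.04 to 2.35 CPM, and 23.4% of its exon bases are shared with a gene on the other strand.

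Summed over D1, D2 and D3, the FPKM was 23.5 and 11.7 with IL-3, against 12.8 and 40.5 without it. The difference of the mean log2 sums was 0.45, and an exact permutation test, two-sided, gave p = 0.667, where 2 against 2 libraries cannot go below 0.333. Ccnd2 made up 48.8% and 52.9% of the sum with IL-3, against 49.4% and 17.7% without it, and Ccnd3 50.2%, 43.7%, 47.9% and 81.2% in the same order. The other 3 libraries held D2 and D3 in similar parts, and Abl1ko/IL3- replicate 2 held mostly D3. The Ccnd2 share differed by -17.3 percentage points between the group means (exact permutation p = 0.667), and by -1.48 without Abl1ko/IL3- replicate 2. Ccnd1 never exceeded 3.40% of the sum.

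**Figure D2:**
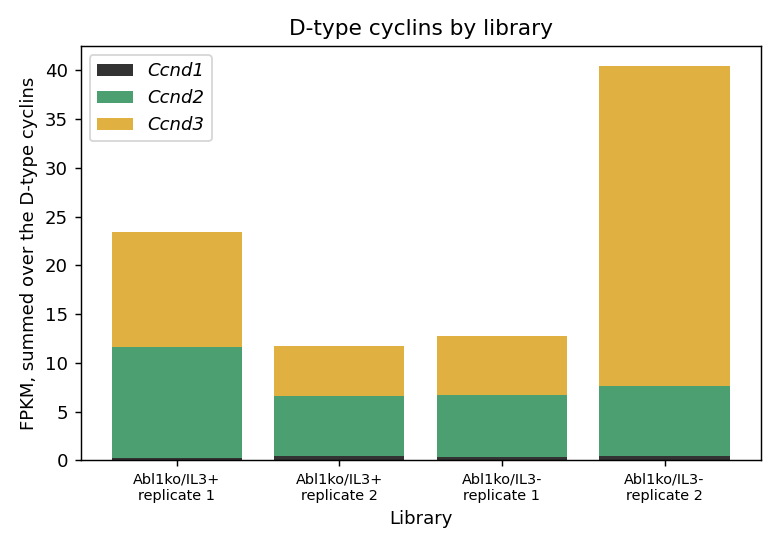
Bars give the FPKM of Ccnd1, Ccnd2 and Ccnd3, stacked from 0, in each of the 4 libraries. The bar of Abl1ko/IL3- replicate 2 reaches 40.5, mostly Ccnd3, while the other library without IL-3 reaches 12.8, near Abl1ko/IL3+ replicate 2 at 11.7.

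Of the kinases that the D-type cyclins bind, Cdk4 (chromosome 10 from 127063534 to 127067920) varied most. It was counted 8406 and 24541 times with IL-3, against 13624 and 12768 without it, or 130 and 451 CPM against 285 and 220.0 CPM. Both libraries without IL-3 lay between the 2 libraries with IL-3, which differed 3.46-fold. The log2 fold change was -0.21 (standard error 0.64, adjusted p = 0.987 in edgeR). It was -0.82 without Abl1ko/IL3+ replicate 1 and 0.95 without Abl1ko/IL3+ replicate 2, so which of them stands for the cells with IL-3 sets the sign. Its exons share 19.7% of their bases with Tspan31 on the other strand, and whether counting used strand is not given in the sources used here.

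Cdk6 (chromosome 5 from 3341485 to 3473180) encodes the other kinase that the D-type cyclins bind. It had 62115 and 31853 counts with IL-3, against 35252 and 35719 without it. In CPM this was 964 and 586 with IL-3, against 737 and 615 without it, again with both libraries without IL-3 between the other 2. For Cdk6 the log2 fold change was -0.20 (standard error 0.40, adjusted p = 0.980 in edgeR). The replicates with IL-3 stood in opposite order for the 2 kinases, as Cdk4 was high in replicate 2 and Cdk6 in replicate 1. In FPKM the ratio of Cdk6 to Cdk4 was 1.72 and 0.301 with IL-3, a 5.69-fold range, and 0.601 and 0.650 without it. A ratio within a library does not move with the scaling of libraries. The difference of its mean log2 values between the groups was -0.20 (exact permutation test, two-sided, p = 1.0).

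Ccne1 (chromosome 7 from 38097984 to 38107534) and Ccne2 (chromosome 4 from 11191351 to 11204779) encode the E-type cyclins. Ccne1 had 645 and 1723 counts with IL-3, against 1156 and 859 without it, or 10.01 and 31.7 CPM against 24.2 and 14.8 CPM. The libraries without IL-3 again fell between those with it, and the log2 fold change was -0.10 (standard error 0.66, adjusted p = 0.996 in edgeR). Ccne2 was the steadiest of the 10 genes, with 1463 and 1512 counts with IL-3, against 1417 and 1876 without it, a 1.42-fold range in CPM. Its values of 22.7 and 27.8 CPM with IL-3 lay under the 29.6 and 32.3 CPM without it, and this order held under the 4 scalings compared. For Ccne2 the log2 fold change was 0.29 (standard error 0.34, adjusted p = 0.949 in edgeR). Ccne2 was the only one of the 10 whose groups did not overlap with higher values without IL-3, where 19.4% of all genes did so, and Ccnd2 the only one with lower values, where 17.9% of all genes did so. Reads of Ccne2 can be shared with Ints8, which overlaps 17.4% of its exon bases on the other strand.

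The ratio of E-type to D-type cyclin FPKM was 0.420 and 1.35 with IL-3, against 1.17 and 0.338 without it. In each group 1 library had more E-type and 1 more D-type cyclin RNA, and the difference of the mean log2 ratios was -0.26 (exact permutation test, two-sided, p = 0.667). Cdk2 (chromosome 10 from 128697939 to 128705030), the kinase of the E-type cyclins, was counted 1600 and 732 times with IL-3, against 658 and 782 times without it. It stood at 24.8 CPM in Abl1ko/IL3+ replicate 1 and at 13.46 to 13.75 CPM in the other 3 libraries. For Cdk2 the log2 fold change was -0.49 (standard error 0.45, adjusted p = 0.933 in edgeR), and without that library it was 0.03.

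Among the brakes, Cdkn1a (chromosome 17 from 29090976 to 29100727) was steady in 3 libraries and low in 1. It had 19747 and 15877 counts with IL-3, against 6664 and 17760 without it, or 306 and 292 CPM against 139 and 306 CPM. Only Abl1ko/IL3- replicate 1 was low, at 2.10-fold under the next library, and in 4.72% of all genes tested that library was the lowest by as large a factor, a comparison made after the value was seen. For Cdkn1a the log2 fold change was -0.43 (standard error 0.47, adjusted p = 0.942 in edgeR), and without that library it was 0.03. Cdkn1a RNA exceeded that of Cdk2, one of the kinases p21 blocks, 21.6-fold and 38.1-fold in FPKM with IL-3 and 17.9-fold and 39.9-fold without it. The difference of the mean log2 ratios was -0.10 (exact permutation test, two-sided, p = 1.0).

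Rb1 (chromosome 14 from 73183673 to 73325822), which encodes the protein the kinases inactivate, had 7236 and 2939 counts with IL-3, against 2854 and 4372 without it. Its 112 and 54.1 CPM with IL-3 enclosed the 59.6 and 75.3 CPM without it. The log2 fold change was -0.30 (standard error 0.45, adjusted p = 0.970 in edgeR), 0.34 without Abl1ko/IL3+ replicate 1 and -0.73 without replicate 2 of that group. Its exons share 14.9% of their bases with Lpar6 and Rcbtb2 on the other strand.

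**Figure D3:**
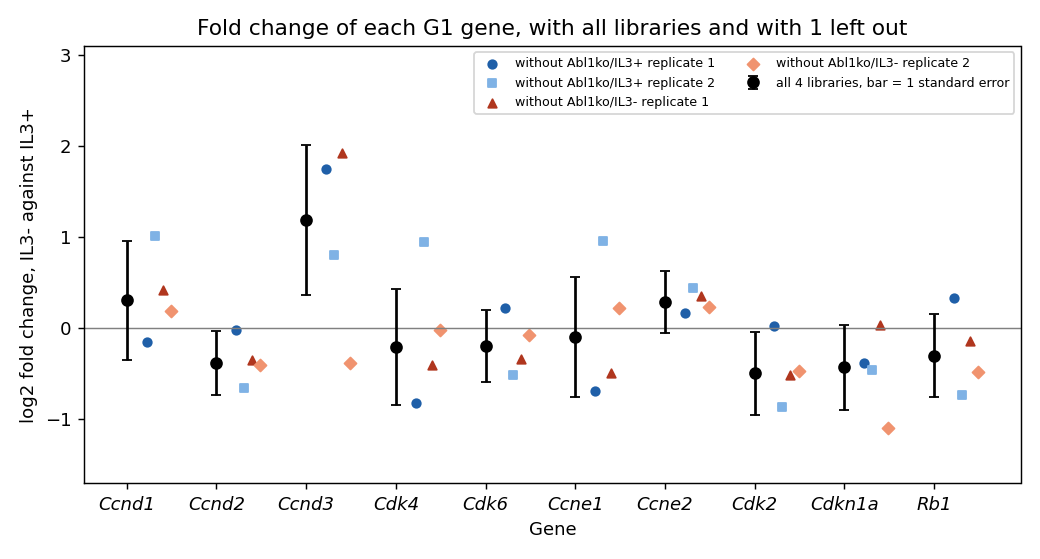
Black points give edgeR's log2 fold change of Abl1ko/IL3- against Abl1ko/IL3+ for each gene with 1 standard error, and coloured points the value with 1 library left out. Most sets of points straddle 0, as for Cdk4 at -0.82 and 0.95, while those of Ccne2 stay above it and those of Ccnd2 below it.

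Laid side by side, the genes fell into opposite orders within the Abl1ko/IL3+ group. In CPM, Cdk4, Ccne1 and Ccnd1 were lowest in replicate 1 and highest in replicate 2. Their log2 differences from replicate 1 to 2 were 1.79, 1.66 and 1.18. Cdk6, Ccnd2, Cdk2 and Rb1 were highest in replicate 1, with log2 differences of -0.72, -0.62, -0.88 and -1.05. In all, 5 of the 10 genes were highest in Abl1ko/IL3+ replicate 1 and 3 in replicate 2, where 31.8% and 28.3% of all genes were, and 0 and 2 were highest in Abl1ko/IL3- replicates 1 and 2, where 23.1% and 16.8% of all genes were. For 6 of the 10 (Ccnd1, Cdk4, Cdk6, Ccne1, Cdk2 and Rb1) both libraries without IL-3 lay between the 2 with IL-3, as for 28.0% of all genes. The median absolute log2 difference between replicates was 0.91 with IL-3 and 0.30 without it for the 10 genes, and 0.79 and 0.37 for all genes. The median log2 fold change of the 10 was -0.20, with 3 above 0 and 7 below, and that of all genes -0.027, with 48.1% above 0.

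**Figure D4:**
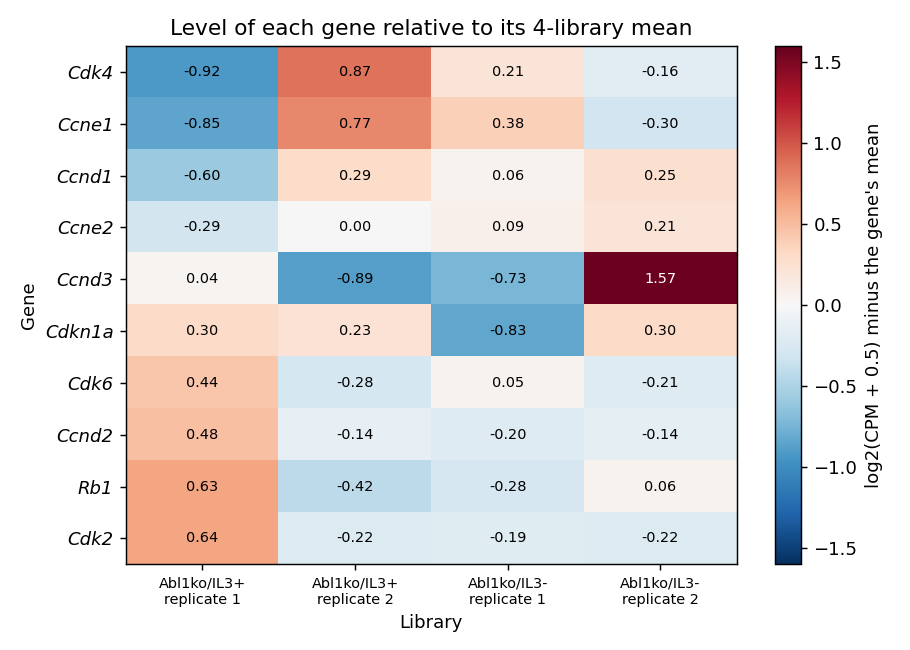
Each cell gives a gene's log2(CPM + 0.5) in a library minus its mean over the 4 libraries, red above and blue below the mean. Cdk4 and Ccne1 run from -0.92 and -0.85 in Abl1ko/IL3+ replicate 1 to 0.87 and 0.77 in replicate 2, Cdk2 and Rb1 the other way, and Ccnd3 stands at 1.57 in Abl1ko/IL3- replicate 2.

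For 3 of the 6 marker lists the summed levels stood in library orders also seen among these genes. This likeness was picked with the values in view, and 4 libraries are too few to test it. The share of all genes in these orders is not given here, so the likeness is description only. Hba-a1, an alpha globin gene with a near-identical copy, had 139 and 6657 FPKM with IL-3, against 3490 and 1795 without it, the same order of libraries as Cdk4 and Ccne1. The 6 erythroid markers summed to 265 and 6961 FPKM with IL-3, against 3632 and 1915 without it. The 6 mast cell markers, led by Cpa3, summed to 402 and 18.5 FPKM with IL-3, against 58.9 and 63.1 without it, highest where Cdk2 and Rb1 were highest. The 5 macrophage markers, led by Adgre1, summed to 123 and 16.8 FPKM with IL-3, against 34.4 and 73.0 without it, in the order of Rb1. These sums rest largely on 1 gene in the erythroid list. Single markers did not all follow the sums. In CPM, 1 of 6 erythroid and 1 of 5 mast cell markers tested had both libraries without IL-3 below both with it. That was so for 17.9% of all genes. The reverse held for 1 of 4 macrophage markers tested and for 19.4% of all genes. The myeloid progenitor markers (1409 and 1106 FPKM with IL-3, against 859.5 and 821 without it) and the neutrophil markers given above followed neither the order of Cdk4 nor that of Rb1. No marker of these lists was at or under 3 counts in every library. The part of these cell states in the G1 gene values was not tested.

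The other genes of the pathway were taken from lists chosen by role. Of 73 genes 72 were in the table and 69 were tested. In edgeR 0 of 69 passed the adjusted threshold, against 0.0% of all genes, and 0 had an unadjusted p under 0.05, against 5.91%. DESeq2 gave 0 and 1 at the same thresholds, against 1.64% and 8.28% of all genes. The median log2 fold change of the 69 was -0.11, with 26 above 0 and 43 below, where 48.1% of all genes were above 0. Within each list the genes with the largest and the smallest fold change are named below.

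Among the other CDK inhibitors 3 of 6 were tested. Cdkn1b, which encodes p27, had 60.9 and 26.8 CPM with IL-3, against 51.5 and 79.4 without it (log2 fold change 0.58, standard error 0.51, adjusted p = 0.931 in edgeR). Cdkn2c, which encodes the CDK4 and CDK6 inhibitor p18, had 22.7 and 23.0 CPM with IL-3, against 23.8 and 11.1 without it. Abl1ko/IL3- replicate 2 was thus the highest of the 4 for p27 and the lowest for p18, with the other library without IL-3 inside or beside the range of those with it. Cdkn1c and Cdkn2b reached at most 4 counts and were not tested, and Cdkn2a was not analysed here.

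Of the pocket proteins and E2F and DP factors, partners and targets of RB1, 12 of 12 were tested, with 3 log2 fold changes above 0 and 9 below and a median of -0.08. E2f3, an activator, had 26.1 and 18.0 CPM with IL-3, against 27.9 and 25.9 without it. E2f6, a repressor, had 26.4 and 5.67 CPM with IL-3, against 6.10 and 10.4 without it, high in Abl1ko/IL3+ replicate 1 alone. The next list held 5 genes that activate or restrain CDKs by adding or removing phosphate. Ccnh, a subunit of the CDK-activating kinase, had 34.6 and 52.7 CPM with IL-3, against 46.0 and 44.4 without it. Cdc25a, the phosphatase that frees CDK2 of its inhibitory phosphate, had 1751 and 2503 counts with IL-3, against 176 and 1577 without it.

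Of the 7 genes that degrade cyclins and inhibitors, Rbx1 had 60.0 and 126 CPM with IL-3, against 142 and 105 without it. Skp2, the ubiquitin ligase subunit that targets p27, had 912 and 1094 counts with IL-3, against 32 and 916 without it (log2 fold change -1.06, standard error 1.31, adjusted p = 0.958 in edgeR). Skp2 and Cdc25a were thus both low in Abl1ko/IL3- replicate 1 alone, the library in which Cdkn1a was low. Abl1ko/IL3- replicate 1 was the lowest by a factor as large as that of Skp2 in 1.48% of all genes tested, a comparison made after the value was seen. Of the 5 tested factors upstream of D-type cyclins and CIP/KIP inhibitors, Foxo3, which activates p27, had 94.6 and 65.3 CPM with IL-3, against 78.3 and 90.3 without it. Myc had 221 and 239 CPM with IL-3, against 149 and 199 without it.

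The 19 E2F target genes of G1/S, the output of the pathway, gave log2 fold changes with a median of -0.20 (6 above 0 and 13 below). With each gene centred on its own mean, they had medians on the log2 scale of -0.52 and 0.63 with IL-3, against 0.11 and -0.25 without it. These medians had the library order of Cdk4 and Ccne1, which not every gene of the list followed. In all, 17 of the 19 were highest in Abl1ko/IL3+ replicate 2, against 28.3% of all genes. In replicate 1 of that group 13 were lowest, and the share of all genes lowest there is not given here. For 11 of the 19 both libraries without IL-3 lay between the 2 with IL-3, against 28.0% of all genes. Slbp, which binds histone mRNA, had 57.0 and 58.8 CPM with IL-3, against 109 and 85.1 without it (log2 fold change 0.74, standard error 0.31, adjusted p = 0.854 in edgeR). Cdt1, a licensing factor of replication, had 18.5 and 99.8 CPM with IL-3, against 18.9 and 13.1 without it (log2 fold change -1.89, standard error 0.84, adjusted p = 0.854 in edgeR), high in Abl1ko/IL3+ replicate 2 alone.

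For the 7 markers of G2 and mitosis, the list medians had the library order of Cdk4 and Ccne1. They were -0.71 and 0.57 with IL-3, against 0.15 and -0.02 without it. Single markers did not all follow: 5 of the 7 were highest in Abl1ko/IL3+ replicate 2, against 28.3% of all genes. For 3 of the 7 both libraries without IL-3 lay between the 2 with IL-3, against 28.0% of all genes. Birc5, which encodes survivin, had 47.0 and 227 CPM with IL-3, against 229 and 141 without it, and Plk1, a mitotic kinase, 54.0 and 133 CPM with IL-3, against 54.0 and 46.7 without it. Of p53 and its other targets 11 were tested, with 7 log2 fold changes above 0 and 4 below and a median of 0.05. Gadd45a, a growth arrest gene, had 41.6 and 45.4 CPM with IL-3, against 62.9 and 92.1 without it (log2 fold change 0.83, standard error 0.35, adjusted p = 0.850 in edgeR). Phlda3, a p53 target, had 1295 and 0 counts with IL-3, against 11 and 8 without it, so nearly all its reads came from 1 library.

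**Figure D5:**
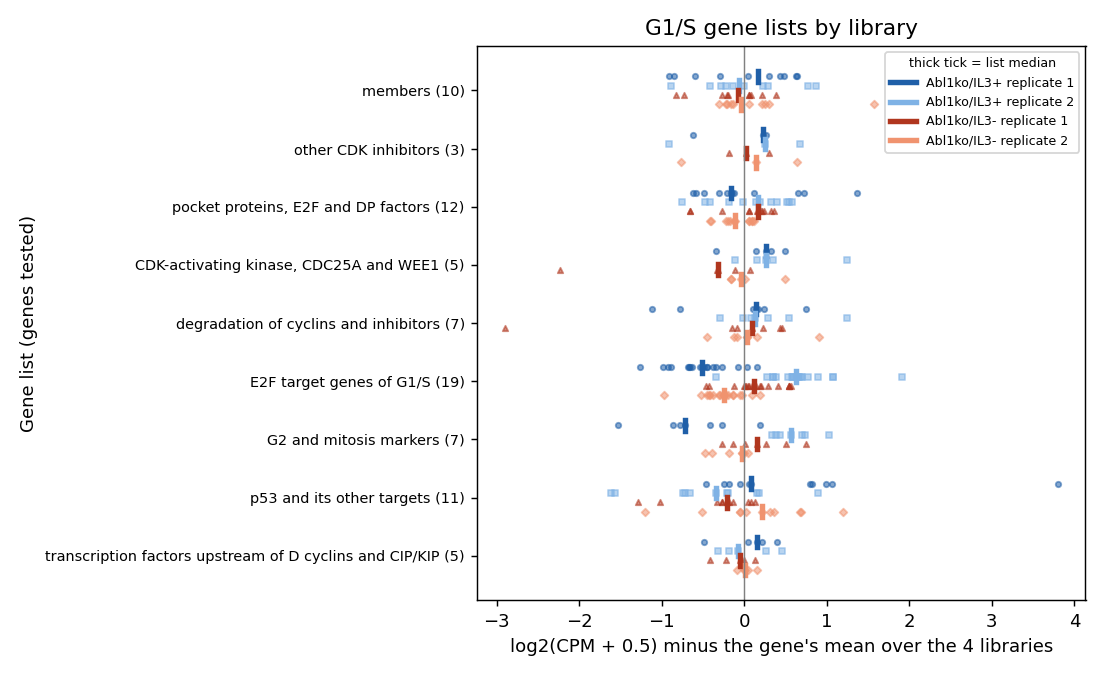
Points give each gene's log2(CPM + 0.5) minus its mean over the 4 libraries, by list (y axis, with the number of genes tested) and library (colour), and thick ticks the list medians. The medians of the E2F targets and of the mitosis markers separate the 2 Abl1ko/IL3+ libraries, at -0.52 and 0.63 for the targets. The medians of the Abl1ko/IL3- libraries lie between them.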

How the data were processed

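RNA-seq libraries of 32Dcl3-Abl1ko cells were compared for 2 groups, with and without IL-3, with 2 replicates each numbered by the labels. The series' design text calls them biological duplicates, and p-values measure only the spread between these samples. Per the labels, total RNA was depleted of ribosomal RNA. Per the study's methods, libraries were sequenced on an Illumina instrument, and reads were aligned to GRCm38 with Rsubread and summarized per gene with featureCounts. The submitters' processing notes instead name STAR and Cuffdiff with the mm10 build. Versions and the strand setting are not given in the sources used here. The table deposited by the authors holds raw gene counts. Beside them the authors deposited FPKM values, whose tool the methods do not name, and which follow these counts nearly in proportion, so that reads split among copies or lost to overlapping genes affect both.

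Groups came from the labels. Counts were filtered with filterByExpr, scaled with TMM and entered in edgeR 4.0.16 (R 4.3.3), whose two-sided quasi-likelihood test was used with Benjamini-Hochberg adjustment over the 16535 genes tested and a threshold of 0.05. The standard error is the log2 fold change over the square root of F. Groups were said not to overlap where both CPM values of one group exceeded both of the other. Ratios of FPKM were compared with an exact permutation test over libraries. The steps were run on simulated data to check the code, and their power to detect a change in these libraries is not given here. The spread between replicates that edgeR fitted in common to all genes, as a coefficient of variation, was 0.54. No 2 libraries were alike within sampling noise by a chi-square test of their counts. Exon overlaps came from GENCODE release M21 and promoters from RefSeq (GRCm38.p6).

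Alternatives were DESeq2 1.42.0, other scalings, other filters on low counts, limma 3.58.1 on log2(FPKM + 1) and log2(FPKM + 0.1), the replicate number as a block, and leaving out each library, where the lone library of a group is assumed to vary like the other group. The crossed pairing was added after seeing the data. Genes named were the 10 members, Abl1, list genes at an unadjusted p under 0.05 (there were none), the largest and smallest fold change of each list and the highest marker of each marker list. Any further gene in the text was picked with its values in view. The members and lists were chosen with earlier results of these data known.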

Additional observations from a re-analysis of the deposited data

How the results depend on the processing

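The number of the 10 genes past the adjusted threshold was 0 under every alternative run, as was that of the 69 tested genes of the pathway lists, the replicate block included, and edgeR called 0 of all 16535 genes with or without the block. DESeq2's size factors and Wald test called 271 of all genes, and edgeR 15 without Abl1ko/IL3- replicate 1. The number of the 10 at an unadjusted p under 0.05 ranged from 0 to 1 when a library was left out: Cdk4 passed without Abl1ko/IL3+ replicate 1 and, with the opposite sign, without Abl1ko/IL3+ replicate 2, and Ccnd3 without Abl1ko/IL3- replicate 1, all from edgeR. In these 3 fits 15.7%, 17.8% and 3.24% of all genes had an unadjusted p under 0.05. The number of the 10 whose groups did not overlap was 2, and 1 with library size alone or upper-quartile factors, where Ccnd2 was lost.

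The log2 fold changes of Cdk4 and Ccne1 changed sign, from -0.21 and -0.10 to 0.0445 and 0.0855 with the replicate block, to 0.0444 and 0.0856 with the crossed replicate block, to 0.0594 and 0.0717 with limma on log2(FPKM + 1), and to 0.0629 and 0.10 with limma on log2(FPKM + 0.1). The cause was not tested. With 1 library left out the log2 fold changes ranged from -0.15 to 1.01 for Ccnd1, from -0.38 to 1.93 for Ccnd3, from -0.82 to 0.95 for Cdk4, from -0.51 to 0.22 for Cdk6, from -0.69 to 0.96 for Ccne1, from -0.87 to 0.0314 for Cdk2, from -1.10 to 0.0324 for Cdkn1a and from -0.73 to 0.34 for Rb1. Those of Ccnd2 and Ccne2 kept their sign under each alternative. Left-out values ranged from -0.38 to 1.29 for the log2 difference in summed D-type cyclins, from -33.2 to -1.48 percentage points for the Ccnd2 share, from -1.16 to 0.64 for the E-type to D-type ratio and from -0.69 to 0.48 for the Cdkn1a to Cdk2 ratio.

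Same-numbered libraries had deviations from their group means that correlated at -0.194 across genes, so the numbers are not taken to pair them. With the pairs crossed, 0 genes passed the adjusted threshold and 1136 had an unadjusted p under 0.05, against 548 with the replicate block and 978 without a block. The 10 genes had between 67 (Ccnd1) and 62115 (Cdk6) counts in a library, and the part of depth in the precision was not tested.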

Other observations

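The 11 genes tested of the p53 list had no common order of libraries. In Abl1ko/IL3+ replicates 1 and 2, 4 and 3 were highest, against 31.8% and 28.3% of all genes. In Abl1ko/IL3- replicates 1 and 2, 0 and 4 were highest, against 23.1% and 16.8% of all genes. In Abl1ko/IL3+ replicate 2, 5 were lowest, and the share of all genes lowest there is not given here. Mdm2, the ubiquitin ligase that restrains p53, was chosen here after its values were seen: it had 7980 and 2292 counts with IL-3, against 1351 and 9278 without it. Like Cdkn1a it was lowest in Abl1ko/IL3- replicate 1, but unlike Cdkn1a it was also low in Abl1ko/IL3+ replicate 2, at 42.2 CPM against 124 CPM in replicate 1 of that group. Ccng1, the cyclin G1 gene, also chosen after its values were seen, had 34524 and 10040 counts with IL-3, against 12207 and 20781 without it. Trp53 itself had 210 and 404 CPM with IL-3, against 173 and 153 without it, with an adjusted p of 0.855 from edgeR.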
